A study of Mus musculus with 18 samples.

Results

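Epithelial cells hold together through adherens junctions, tight junctions and desmosomes. Here 10 genes of epithelial adhesion, polarity and splicing were followed through reprogramming: Cdh1, Epcam, Cldn3, Cldn4, Cldn6, Cldn7, Ocln, Crb3, Esrp1 and Dsp. They were taken by gene symbol, 10 of the 19937 genes measured, and each was represented by 1 probe set. Mouse embryonic fibroblasts (MEFs) are mesenchymal and must gain an epithelial form on the way to the pluripotent state, whose colonies are epithelial. E-cadherin (Cdh1) joins cells at adherens junctions, claudins and occludin build the seal of tight junctions, and desmoplakin (Dsp) ties desmosomes to keratin filaments. Snail and Zeb proteins, repressors made by mesenchymal cells, silence Cdh1 and other epithelial genes through E-box sites in their promoters.

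RNA of 6 groups was measured on 18 mouse expression arrays, 3 per group. The EOS3F-24 line is a partially reprogrammed induced pluripotent stem (iPS) line, and 1 group is EOS3F-24 after conversion with 2i, a MEK inhibitor at 2 µM and a GSK inhibitor at 12 µM in ES medium with LIF. EOS3F-28 and EOS3F-29 are fully reprogrammed iPS lines. All 3 lines came from CD1 MEFs infected with pMX-Oct4, pMX-Klf4 and pMX-Sox2 retroviruses and were kept under puromycin at 1 µg/ml. Whether this selection went on during 2i conversion is not given in the sources used here, so comparisons with converted cells may also differ in it. J1 embryonic stem (ES) cells and low-passage primary CD1 MEFs completed the set. Arrested feeders and LIF were used for the iPS and J1 cells but not for the MEFs, so every comparison with MEFs also changes the culture. Partial reprogramming is represented by 1 line. Nothing in the labels says that replicate arrays came from separate cultures, so p-values measure only how far these arrays vary, and that variation may be technical. In such bulk RNA, fewer cells of a type and less RNA per cell cannot be told apart.

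Levels are RMA values on a log2 scale, array medians lay between 3.92 and 4.11, and replicate arrays correlated at 0.970 to 0.992 over all genes. The mean of 8 pluripotency markers lay between 8.49 and 8.76 on the arrays of 2i-converted cells, 4.49 and 5.14 in EOS3F-24, 7.70 and 8.27 in the full lines, 8.56 and 8.83 in J1 cells and 3.48 and 3.60 in MEFs. The mean of 12 fibroblast and feeder markers was 5.67 to 8.05 on the 15 feeder-grown arrays and 8.93 to 9.34 in MEFs. In 5 of 5 feeder-grown groups the replicate 1 array had the highest fibroblast mean, and in 5 of 5 it had the lowest level of Cdh1, Epcam, Cldn7, Ocln, Esrp1 and Dsp. For Cldn3, Cldn4, Cldn6 and Crb3 it was lowest in 4 of 5. MEF replicate 2 stood apart from its group: Krt5, a basal keratin, read 7.70 there, against 3.49 and 3.62 on the other MEF arrays, and Krt14 read 7.10, against 4.10 and 4.18. This array also had the highest Cdh1, Epcam, Cldn4 and Dsp levels of the MEFs. Member counts against MEFs are therefore given without it as well. Results of the gene lists against MEFs all include this array.

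RefSeq (GRCm38.p6) gave promoter windows for 8 of the 10 genes, and the windows of 4 that were low together in EOS3F-24 are shown with those of Dsp and Ocln, which were not called lower there than in the full lines. Each is the 250 bases before the annotated start, read 5′ to 3′ on the gene's strand, with the E-box letters CACCTG or CAGGTG (the same site on either strand) in capitals.
Epcam, chr17:87635729-87635978, plus strand: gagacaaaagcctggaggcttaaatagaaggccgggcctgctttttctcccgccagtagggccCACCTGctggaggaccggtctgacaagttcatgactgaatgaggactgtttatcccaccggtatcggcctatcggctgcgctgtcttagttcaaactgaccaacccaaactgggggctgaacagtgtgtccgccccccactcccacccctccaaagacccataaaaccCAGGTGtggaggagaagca
Cldn4, chr5:134946935-134947184, minus strand: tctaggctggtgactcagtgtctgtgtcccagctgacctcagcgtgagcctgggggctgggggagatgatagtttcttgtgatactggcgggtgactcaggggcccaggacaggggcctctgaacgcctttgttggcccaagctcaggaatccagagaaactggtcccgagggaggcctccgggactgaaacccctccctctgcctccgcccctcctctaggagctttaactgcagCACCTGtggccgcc
Cldn6, chr17:23679115-23679364, plus strand: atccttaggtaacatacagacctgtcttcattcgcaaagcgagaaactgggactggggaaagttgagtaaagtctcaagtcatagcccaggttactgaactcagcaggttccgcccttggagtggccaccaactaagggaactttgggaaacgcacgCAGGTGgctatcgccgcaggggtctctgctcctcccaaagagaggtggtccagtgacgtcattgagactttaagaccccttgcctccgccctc
Cldn7, second of 2 windows, chr11:69965171-69965420, plus strand: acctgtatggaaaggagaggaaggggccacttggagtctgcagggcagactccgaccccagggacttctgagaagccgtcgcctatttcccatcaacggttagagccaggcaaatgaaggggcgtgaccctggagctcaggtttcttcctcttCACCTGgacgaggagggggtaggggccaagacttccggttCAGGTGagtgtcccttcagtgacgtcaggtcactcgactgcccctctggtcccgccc
Dsp, chr13:38151044-38151293, plus strand: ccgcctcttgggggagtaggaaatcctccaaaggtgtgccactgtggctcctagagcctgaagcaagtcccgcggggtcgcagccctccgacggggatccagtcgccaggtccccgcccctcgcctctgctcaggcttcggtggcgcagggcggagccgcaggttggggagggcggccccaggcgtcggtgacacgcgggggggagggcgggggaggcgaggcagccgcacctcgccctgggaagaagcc
Ocln, second of 2 windows, chr13:100552499-100552748, minus strand: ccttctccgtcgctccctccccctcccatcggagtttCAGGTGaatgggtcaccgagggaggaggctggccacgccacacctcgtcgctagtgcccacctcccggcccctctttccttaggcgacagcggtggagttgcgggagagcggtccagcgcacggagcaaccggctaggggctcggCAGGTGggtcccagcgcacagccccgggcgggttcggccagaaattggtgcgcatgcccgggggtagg
Epcam held 2 E-boxes, whose first bases lay 187 and 19 bases before the start, and Cldn7 held 2, at 97 and 57 bases. Cldn4 held 1 at 14 bases and Cldn6 held 1 at 93 bases. Ocln held 2 in this window, at 213 and 68 bases. The Dsp and Cldn3 windows held none, and neither did the first windows of Cldn7 and Ocln. Over all 8 genes, 6 had the motif in at least 1 window and 7 of their 11 windows held it, whereas 17.2% of 32851 windows of the same length did; the paired windows of Crb3 and of Ocln overlap. The letters AACCNG on either strand, a Grainyhead box, were in 5 of the 11 windows and in 33.9% of all windows. These matches are letters in a window, and binding was not measured.

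**Figure D1:**
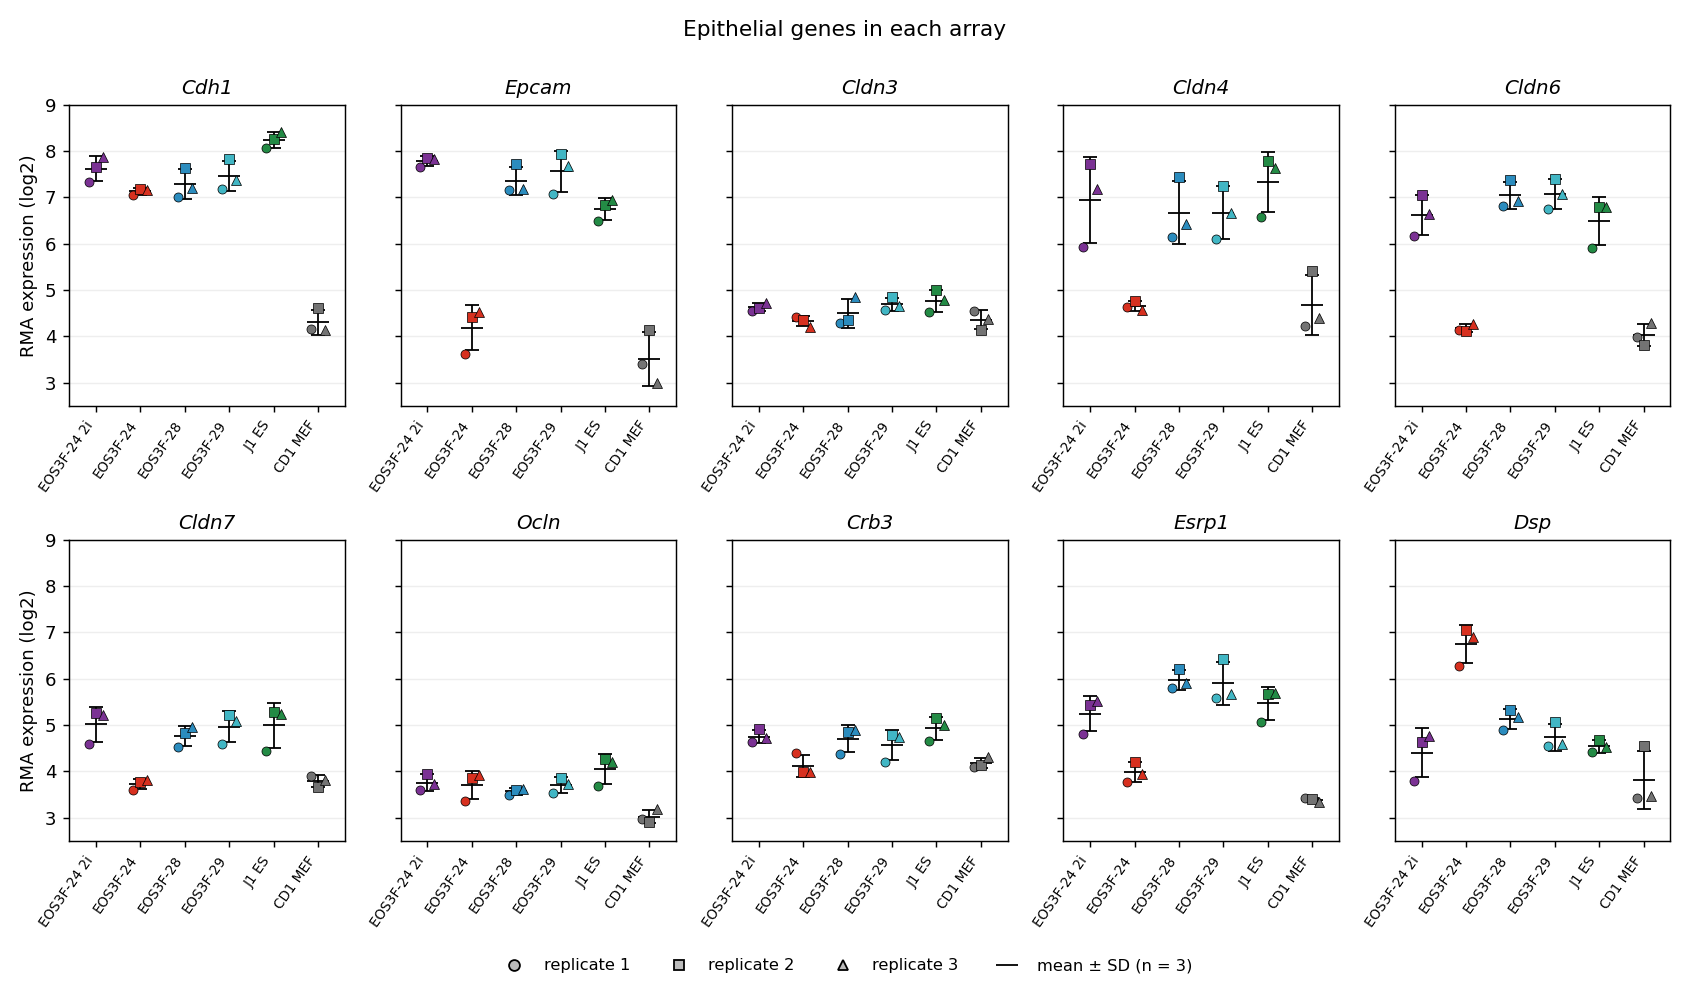
RMA expression (log2, vertical axis) of the 10 genes on each array, by group (horizontal axis). Symbols mark replicates 1 to 3 and bars the mean ± SD (n = 3). EOS3F-24 sat with the full iPS lines and below J1 cells for Cdh1. It lay near the MEFs for Epcam, Cldn4, Cldn6 and Cldn7, and above every group for Dsp.

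E-cadherin RNA in the partial line lay within the range of the full iPS lines and far above that of fibroblasts. Cdh1 (chromosome 8) read 7.32, 7.66 and 7.87 in 2i-converted cells and 7.05, 7.19 and 7.15 in EOS3F-24. It read 7.0, 7.64 and 7.21 in EOS3F-28, and 7.18, 7.82 and 7.38 in EOS3F-29. J1 cells gave 8.06, 8.26 and 8.41, and MEFs gave 4.15, 4.61 and 4.14. The J1 arrays were the highest and the MEF arrays the lowest, without overlap with any other group, and the 4 groups between them overlapped in order of their means. EOS3F-24 exceeded MEFs by 2.83 ± 0.19 log2 units (SE, 7.11-fold, limma adjusted p = 8.49e-09). The full lines exceeded MEFs by 3.07 ± 0.16 (limma adjusted p = 3.19e-10). EOS3F-24 minus the full lines was -0.24, with a 95% interval of -0.59 to 0.10 (limma adjusted p = 0.374).

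Epcam, which encodes a homophilic adhesion protein of epithelia and ES cells that binds claudin-7, was far lower in the partial line than in the full lines. It read 7.66, 7.85 and 7.83 in 2i-converted cells, against 3.62, 4.42 and 4.53 in EOS3F-24. The full lines gave 7.17, 7.71 and 7.18 (EOS3F-28) and 7.08, 7.94 and 7.67 (EOS3F-29), J1 cells 6.49, 6.83 and 6.94, and MEFs 3.41, 4.14 and 2.99. The highest EOS3F-24 array lay 1.96 log2 units under the lowest array of the other feeder-grown groups. EOS3F-24 and MEFs overlapped through MEF replicate 2 (4.14) alone, and the other MEF arrays lay below every EOS3F-24 array. EOS3F-24 was 3.27 ± 0.24 log2 units below the full lines, a 9.62-fold difference (limma adjusted p = 3.09e-08). Against MEFs it stood at 0.68 ± 0.28 and missed the threshold (limma adjusted p = 0.0895). Without MEF replicate 2 that difference was 0.99 and passed (limma adjusted p = 0.0129). The full lines exceeded MEFs 15.4-fold, by 3.95 ± 0.24 log2 units (limma adjusted p = 1.82e-09).

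The claudins form the sealing strands of tight junctions, and 3 of the 4 members among them followed Epcam. Cldn6, a claudin of embryonic and pluripotent epithelia, read 6.18, 7.05 and 6.63 in 2i-converted cells and 4.14, 4.13 and 4.28 in EOS3F-24. The full lines gave 6.82, 7.38 and 6.93 (EOS3F-28) and 6.75, 7.39 and 7.07 (EOS3F-29), J1 cells 5.90, 6.79 and 6.80, and MEFs 4.0, 3.80 and 4.28. EOS3F-24 overlapped the MEFs and lay below every other group. The partial line was 2.87 ± 0.21 log2 units below the full lines (7.33-fold, limma adjusted p = 3.17e-08) and 0.16 ± 0.25 from MEFs, with an interval of -0.36 to 0.67 (limma adjusted p = 0.721).

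Cldn4 read 5.92, 7.72 and 7.18 in 2i-converted cells and 4.62, 4.77 and 4.58 in EOS3F-24. It read 6.15, 7.43 and 6.43 in EOS3F-28, 6.10, 7.25 and 6.66 in EOS3F-29, 6.59, 7.79 and 7.63 in J1 cells, and 4.22, 5.41 and 4.40 in MEFs. The replicate 1 array was lowest in each of the 4 groups with high Cldn4, by up to 1.79 log2 units within 2i-converted cells, and those arrays had the highest fibroblast marker means. EOS3F-24 minus the full lines was -2.01 ± 0.38 log2 units (4.03-fold lower, limma adjusted p = 0.00107) and differed from MEFs by -0.02 ± 0.44 (limma adjusted p = 0.985), or by 0.35 without MEF replicate 2 (limma adjusted p = 0.672). Its overlap with the MEFs also rested on that array. Cldn7, whose protein pairs with Epcam, averaged 5.02 ± 0.37 in 2i-converted cells and 3.73 ± 0.12 in EOS3F-24 (SD, n = 3 each). Its mean was 4.87 ± 0.27 over the 6 arrays of the full lines, 5.0 ± 0.48 in J1 cells and 3.80 ± 0.12 in MEFs. All EOS3F-24 arrays lay under all arrays of the other feeder-grown groups, by 1.14 ± 0.19 log2 units in the mean against the full lines (SE, limma adjusted p = 0.000289). Cldn3 spanned 4.14 to 4.99 over all 18 arrays, every pair of neighbouring groups overlapped, and EOS3F-24 minus the full lines was -0.27 with an interval of -0.55 to 0.00 (limma adjusted p = 0.178).

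Occludin, the other transmembrane protein of the tight junction strand here, went with Cdh1. Ocln read 3.36, 3.85 and 3.92 in EOS3F-24, 3.49 to 3.86 over the full lines and 2.98, 2.90 and 3.19 in MEFs. EOS3F-24 was 0.69 ± 0.17 log2 units above MEFs (limma adjusted p = 0.00516) and the full lines 0.61 ± 0.14 above them (limma adjusted p = 0.0027). These are small differences at levels under the array medians, where RMA compresses differences. EOS3F-24 minus the full lines was 0.08, with an interval of -0.23 to 0.38 (limma adjusted p = 0.795). The feeder-grown groups overlapped one another in order of their means, and the MEFs lay below all of them.

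Crb3 encodes an apical polarity protein of the Crumbs complex. It spanned 3.98 to 5.15 over all arrays, and neighbouring groups overlapped throughout. Its mean was 4.13 ± 0.24 in EOS3F-24, against 4.64 ± 0.28 over the full lines (SD, n = 3 and 6), a difference of -0.52 ± 0.15 (SE, limma adjusted p = 0.0251). Their arrays overlapped, and the call was lost without replicate 2 or replicate 3 of any of the 3 lines. Esrp1, an RNA-binding protein that sets epithelial splice forms, read 4.81, 5.43 and 5.51 in 2i-converted cells and 3.78, 4.21 and 3.95 in EOS3F-24. The full lines gave 5.80, 6.22 and 5.92 (EOS3F-28) and 5.59, 6.43 and 5.68 (EOS3F-29), J1 cells 5.06, 5.67 and 5.69, and MEFs 3.42, 3.41 and 3.35. EOS3F-24 lay between the MEFs and all other groups without overlap on either side. It was 1.96 ± 0.19 log2 units below the full lines (limma adjusted p = 1.02e-06), and 0.59 ± 0.22 above MEFs without passing the threshold (limma adjusted p = 0.0671).

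Dsp was the one member that peaked in the partial line. It read 3.80, 4.65 and 4.77 in 2i-converted cells, against 6.28, 7.06 and 6.91 in EOS3F-24. The full lines gave 4.90, 5.32 and 5.17 (EOS3F-28) and 4.54, 5.06 and 4.60 (EOS3F-29), J1 cells 4.41, 4.69 and 4.54, and MEFs 3.42, 4.54 and 3.48. Every EOS3F-24 array exceeded every other array of the series, and replicate 2 was the highest of the MEFs. The partial line was 2.94 ± 0.29 log2 units above MEFs (7.65-fold, limma adjusted p = 7.98e-07), or 3.30 above them without MEF replicate 2 (limma adjusted p = 1.62e-07). It was 1.82 ± 0.25 above the full lines (3.52-fold, limma adjusted p = 4.18e-05). The full lines were 1.12 ± 0.25 above MEFs (limma adjusted p = 0.00166).

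Counted against MEFs, the epithelial gain differed in width between the partial and the full state. In EOS3F-24, 3 of 10 members rose (Cdh1, Ocln and Dsp) and 0 fell, where 13.7% of all genes rose and 10% fell at an adjusted p under 0.05 in the limma fit over all genes. At an unadjusted threshold of 0.05, Epcam and Esrp1 would have been added. The median member difference was 0.37, beside 0.04 over all genes. In the full lines 9 members rose and 0 fell, against 17.1% and 17.8% of all genes, with a median of 1.56 beside 0.03 over all genes. Cldn3, at 0.24 ± 0.13, was the exception (limma adjusted p = 0.182). In J1 cells 9 rose and 0 fell, against 20.6% and 17.5% of all genes, with Cdh1 15.4-fold, Epcam 9.46-fold and Cldn4 6.32-fold above MEFs. Dsp, at 0.73 ± 0.29, was the exception there (limma adjusted p = 0.0524).

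These 3 comparisons share their MEF arrays. Without MEF replicate 2, EOS3F-24 minus MEFs was 2.98 for Cdh1 and 0.62 for Ocln, and the full lines minus MEFs was 3.23 for Cdh1, 4.26 for Epcam, 2.36 for Cldn4 and 2.92 for Cldn6. The counts of risers were then 4 in EOS3F-24, 8 in the full lines and 9 in J1 cells. Of all 19937 genes, 2696, 3113 and 3792 rose in these refits. Epcam was added in EOS3F-24, as it was without EOS3F-24 replicate 1, and Crb3 was lost in the full lines (limma adjusted p = 0.0808), and in J1 cells Dsp was added (1.10, limma adjusted p = 0.00323) and Cldn3 lost (limma adjusted p = 0.179).

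**Figure D2:**
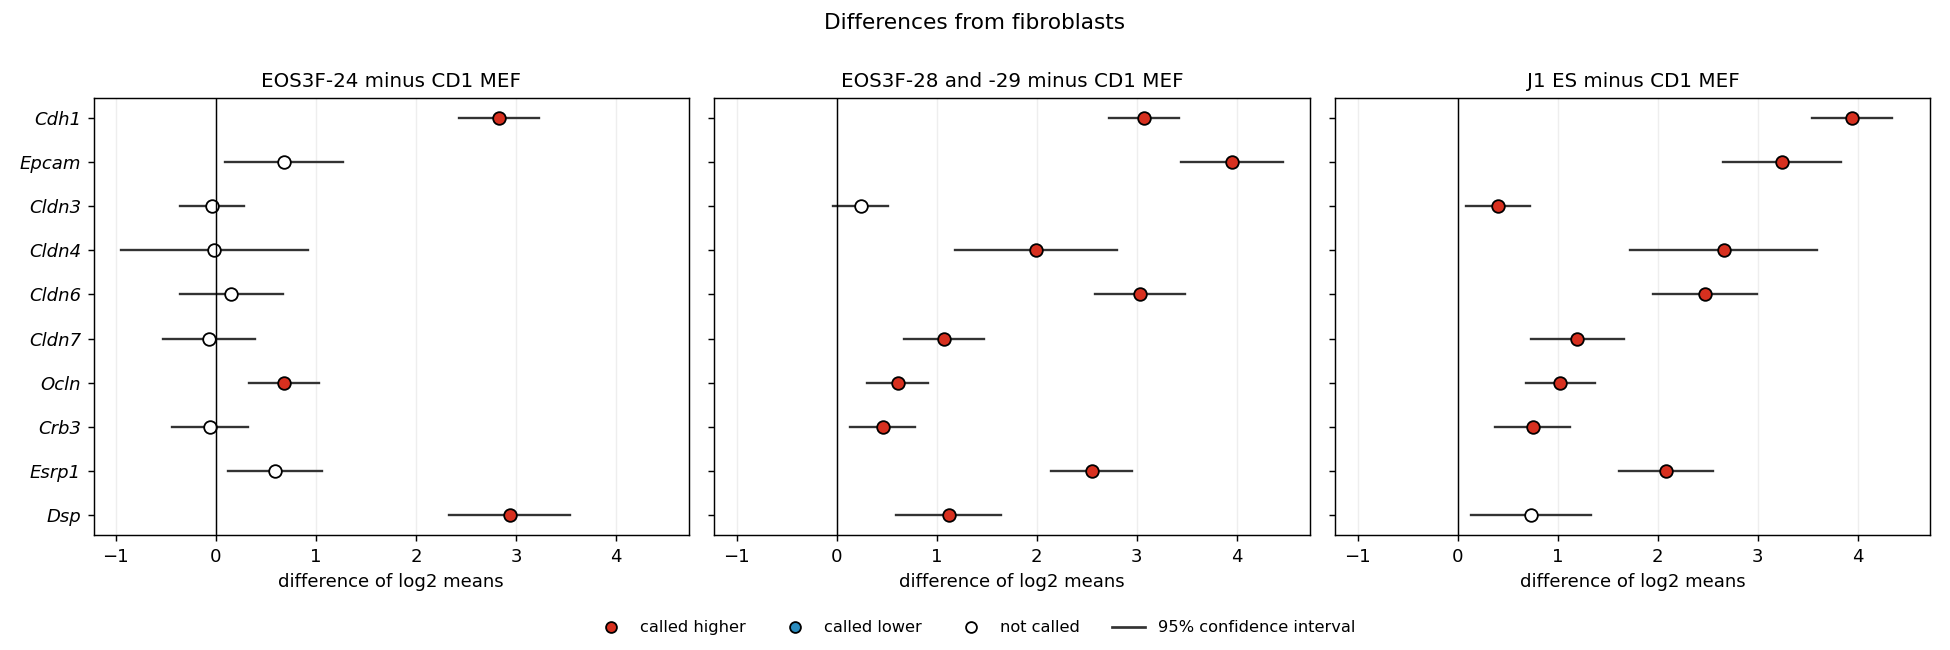
Difference of log2 means from MEFs (horizontal axis) for each gene in EOS3F-24, in the 2 full lines averaged, and in J1 cells, with 95% confidence intervals and filled points for calls at an adjusted p under 0.05. Cdh1, Ocln and Dsp were called in EOS3F-24, and Epcam at 0.68 there stood at 3.95 in the full lines.

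Set directly against the full lines, EOS3F-24 had 6 members lower (Epcam, Cldn4, Cldn6, Cldn7, Esrp1 and Crb3), 1 higher (Dsp) and 3 not called (Cdh1, Ocln and Cldn3). Over all genes 5.78% were lower and 12.8% higher. The median member difference was -0.83, beside 0.01 for all genes, and arrays did not overlap for 6 members, as for 19% of all genes. Against J1 cells, 8 members were lower and 1 higher in EOS3F-24, where 9.65% of all genes were lower and 13.3% higher. Cdh1 belonged to the lower ones here, at -1.11 ± 0.19 (limma adjusted p = 0.000288), and Dsp was again the higher one, at 2.20 ± 0.29 (limma adjusted p = 1.92e-05). Ocln was not called at -0.34 (limma adjusted p = 0.162), but it was with the replicate number as a block (limma adjusted p = 0.0496), and same-numbered arrays of these groups deviated together. Cldn3, at -0.44 ± 0.15 (limma adjusted p = 0.0428), lost its call without any single array of these groups other than J1 replicate 1.

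Of the 12 fibroblast and feeder markers, limma called 0 in EOS3F-24 against the full lines, and 0 passed an unadjusted p of 0.05. With their mean as a covariate over the 15 feeder-grown arrays, an alternative chosen after seeing the data, Epcam was at -3.27, Cldn4 at -2.01, Cldn6 at -2.88 and Dsp at 1.81 in EOS3F-24 minus the full lines.

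**Figure D3:**
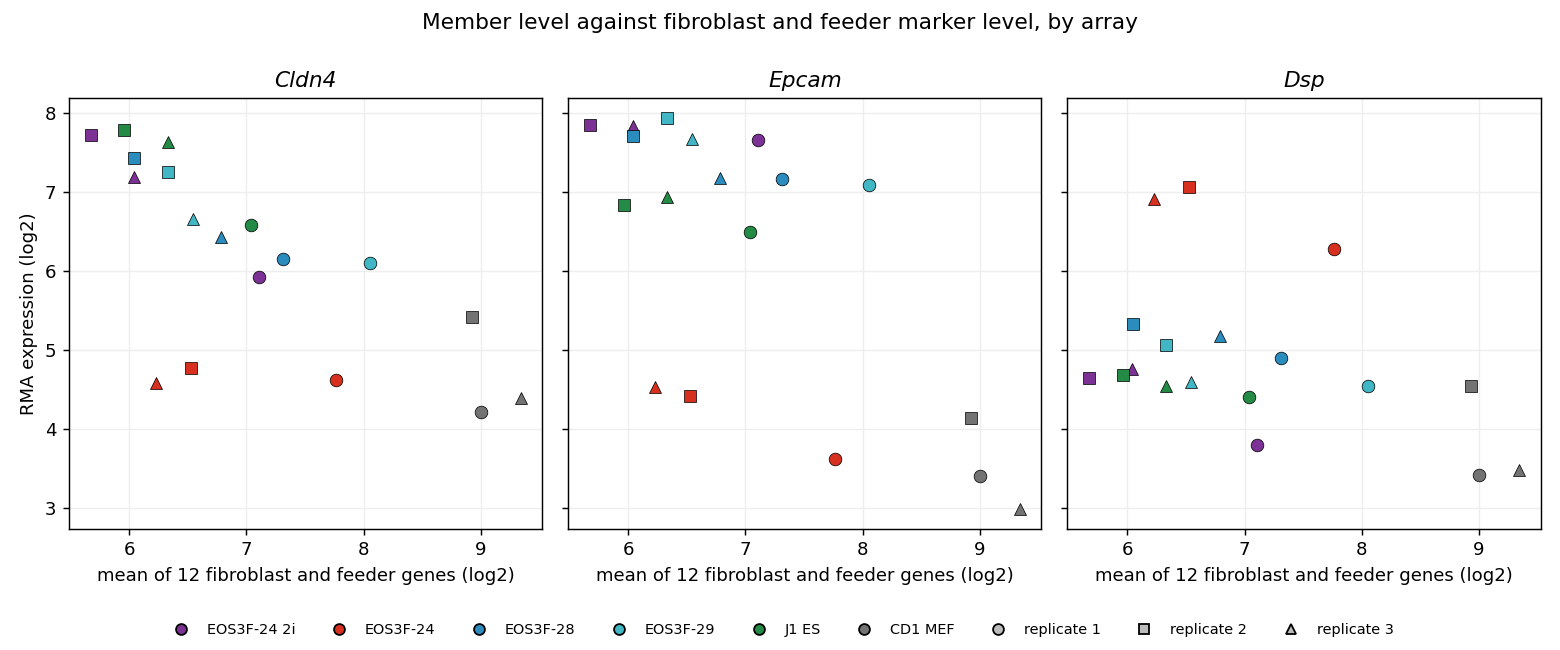
RMA expression (log2, vertical axis) of Cldn4, Epcam and Dsp on each of the 18 arrays against the mean of 12 fibroblast and feeder genes on that array (log2, horizontal axis), with colours for groups and symbols for replicates. The EOS3F-24 arrays at fibroblast means of 6.23 to 7.77 stayed between 4.58 and 4.77 for Cldn4, while the other feeder-grown arrays at 5.67 to 8.05 ran between 5.92 and 7.79.

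After 2i conversion, 6 members rose in EOS3F-24 (Epcam, Cldn4, Cldn6, Cldn7, Esrp1 and Crb3) and Dsp fell, where 9.36% of all genes rose and 13% fell. Epcam was 3.59 ± 0.28 log2 units higher after conversion, 12-fold (limma adjusted p = 4.83e-08). Cldn6 was 2.44 ± 0.25 higher (5.42-fold, limma adjusted p = 1.15e-06), and Cldn4 2.28 ± 0.44 (4.86-fold, limma adjusted p = 0.000983). Cldn7 gained 1.29 ± 0.22, Esrp1 1.27 ± 0.22 and Crb3 0.63 ± 0.18, with limma adjusted p-values of 0.000289, 0.000391 and 0.016. Dsp was 2.35 ± 0.29 lower, 5.08-fold (limma adjusted p = 9.92e-06). Arrays of both groups lay apart for 9 members, as for 37.8% of all genes. They overlapped for Ocln, which differed by 0.05 with an interval of -0.30 to 0.40 (limma adjusted p = 0.899).

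Cdh1 was 0.49 ± 0.19 higher after conversion without passing the threshold (limma adjusted p = 0.078). With the replicate number as a block it passed (limma adjusted p = 0.00699), and same-numbered arrays of these groups deviated together. It passed without converted replicate 1 too, and Crb3 lost its call without converted replicate 2 or EOS3F-24 replicate 2 or 3. The fibroblast marker mean was 5.67 to 7.10 after conversion and 6.23 to 7.77 before it. With that mean as a covariate Epcam was 3.35 higher, Cldn4 1.89, Cldn6 2.22, Cldn7 1.08, Esrp1 1.07 and Crb3 0.53, and Dsp was at -2.56, with the same 7 calls.

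Against the full lines, 0 of the 10 members were higher in converted cells and 1 was lower in the limma fit, where 3.96% and 1.2% of all genes were. At an unadjusted p under 0.05, 0 were higher and 2 lower. The lower one was Esrp1, at -0.69 ± 0.19 (limma adjusted p = 0.0465), with arrays of 4.81 to 5.51 in converted cells and 5.59 to 6.43 in the full lines. Leaving out any converted array ended that call, as did comparing with either full line alone. With the fibroblast marker covariate 3 were lower, Esrp1 at -0.89, Dsp at -0.75 and Cldn6 at -0.66, and 0 were higher. In that fit 361 of 19937 genes were lower and 999 higher. Without the covariate, the intervals of the 9 members other than Esrp1 were between -1.05 and 1.08, the widest being that of Cldn4 at -0.54 to 1.08.

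**Figure D4:**
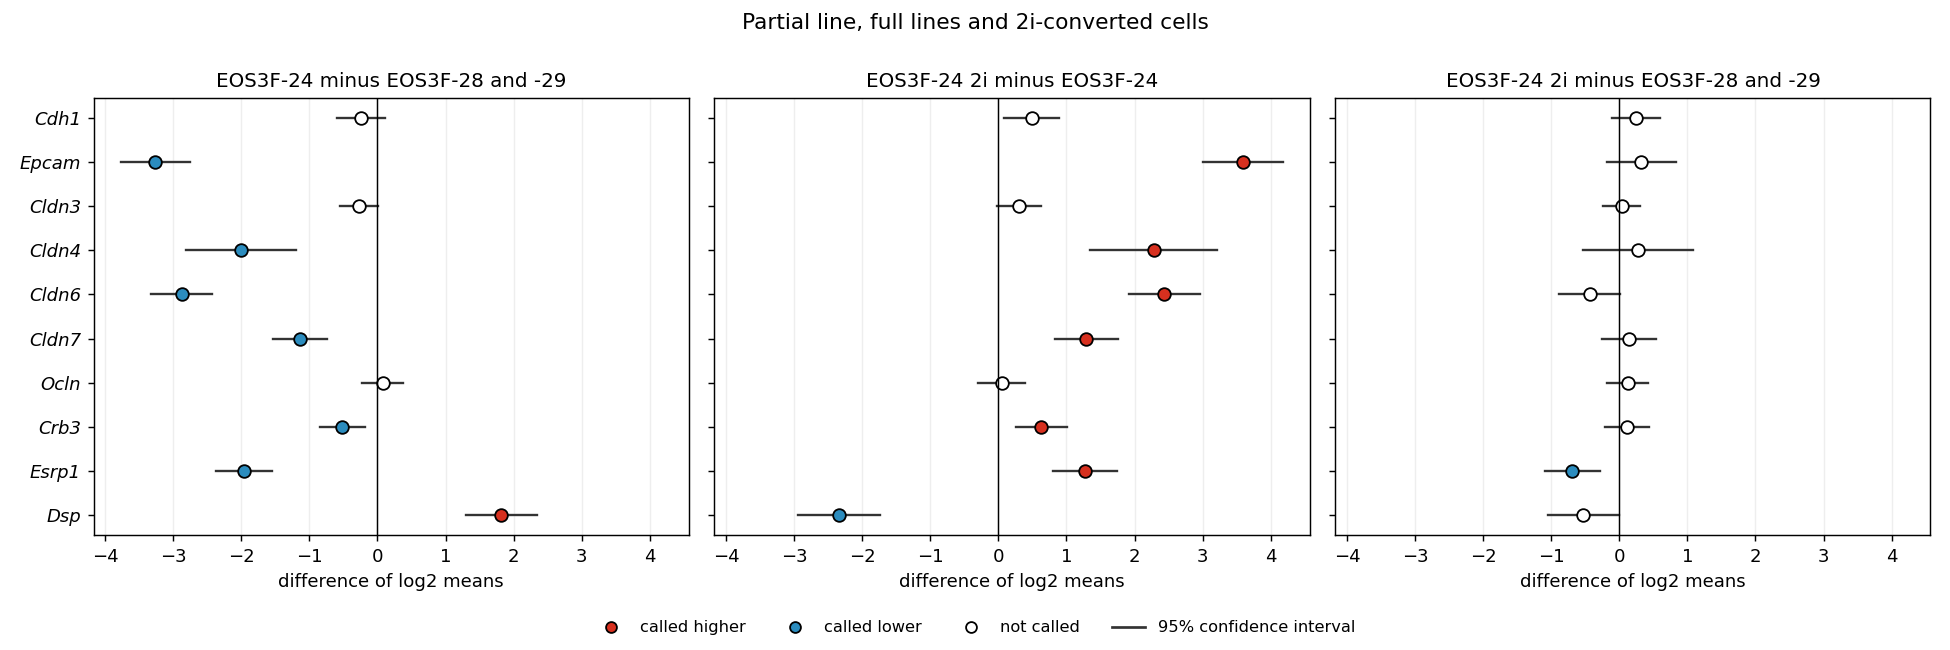
Difference of log2 means (horizontal axis) for each gene in EOS3F-24 minus the full lines, 2i-converted EOS3F-24 minus EOS3F-24, and 2i-converted EOS3F-24 minus the full lines, with 95% confidence intervals and filled points for calls at an adjusted p under 0.05. The 6 members called lower in the left panel were called higher in the middle one, Dsp the reverse, and Esrp1 alone was called in the right one; the panels share arrays.

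The full lines had 0 members higher and 1 lower than J1 cells, where 1.29% of all genes were higher and 3.47% lower. At an unadjusted limma p under 0.05, 3 members were higher and 2 lower. With the fibroblast marker covariate, 4 were higher (Epcam at 0.87, Cldn6 at 0.71, Esrp1 at 0.61 and Dsp at 0.54) and 1 lower. In that fit 483 of 19937 genes were higher and 1001 lower. Without the covariate, the 1 called lower at the adjusted threshold was Cdh1, at -0.87 ± 0.16 (limma adjusted p = 0.00452). It read 7.0 to 7.82 over 6 full-line arrays and 8.06 to 8.41 in J1 cells. Without J1 replicate 3 it missed the threshold (limma adjusted p = 0.0517). Epcam lay apart in the other direction, with 7.08 to 7.94 in the full lines and 6.49 to 6.94 in J1 cells, at 0.70 ± 0.24 (limma adjusted p = 0.115). Between EOS3F-28 and EOS3F-29 0 members were called by limma, and 0 at an unadjusted p under 0.05, beside 0.301% of all genes higher and 0.231% lower in EOS3F-28. The largest difference there was Dsp, at 0.40 ± 0.29 (limma adjusted p = 0.669).

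The rest of the junction machinery was read from lists around the members. Of 11 other desmosome and plakin genes, 8 rose and 0 fell in EOS3F-24 against MEFs, 6 rose and 0 fell against the full lines, and 0 rose and 5 fell after 2i conversion. Over all genes, 13.7% rose against MEFs, 12.8% rose against the full lines, and 13% fell after conversion. Against J1 cells, 6 rose in EOS3F-24 and 1 fell (Pkp2, at -1.69), where 13.3% of all genes rose and 9.65% fell. Perp, a desmosome protein of stratified epithelia, read 7.96, 8.30 and 8.36 in EOS3F-24, against 5.73 to 6.74 in the full lines and 4.37, 5.04 and 4.50 in MEFs. It was 1.96 ± 0.14 log2 units above the full lines (limma adjusted p = 2.11e-08) and 3.58 ± 0.16 above MEFs (limma adjusted p = 5.22e-11). Dsg3, a desmosomal cadherin of stratified epithelia, read 3.09, 3.26 and 3.17 in 2i-converted cells, against 5.65, 6.18 and 5.43 in EOS3F-24, and was 2.58 ± 0.21 lower after conversion (limma adjusted p = 7.78e-08). Between the full lines, Dsg3 was 4.36 to 4.83 in EOS3F-28 and 3.29 to 3.41 in EOS3F-29. Dsg2, a desmosomal cadherin also found in simple epithelia, read 5.27, 5.69 and 5.51 in EOS3F-24, against 4.65 to 5.35 in the full lines and 3.45, 3.35 and 3.18 in MEFs. It was 2.16 ± 0.12 above MEFs in EOS3F-24 (limma adjusted p = 1.12e-09) and 1.66 ± 0.11 above them in the full lines (limma adjusted p = 3.51e-09). EOS3F-24 exceeded the full lines by 0.50 ± 0.11, with overlapping arrays (limma adjusted p = 0.00252).

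Some keratinocyte genes were also high in EOS3F-24. The mean of 10 keratinocyte markers was 3.93 to 4.01 in 2i-converted cells, 5.47 to 5.92 in EOS3F-24, 4.83 to 4.98 in EOS3F-28, 4.14 to 4.21 in EOS3F-29, 4.04 to 4.09 in J1 cells, and 3.66 to 5.23 in MEFs, where replicate 2 held the top. Of these 10, 3 rose in EOS3F-24 against the full lines and 0 fell, where 12.8% of all genes rose and 5.78% fell. The risers were Krt13 at 3.79 ± 0.20 (limma adjusted p = 5.02e-10), Krtdap at 3.21 ± 0.16 and Krt14 at 2.53 ± 0.44. The other 7 were not called, and Krt5 read 3.64 to 3.69 in EOS3F-24 and 3.41 to 3.71 in the full lines. Their part in the Dsp result was not tested.

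Of 13 other claudins, 1 rose and 0 fell in EOS3F-24 against the full lines, where 12.8% of all genes rose and 5.78% fell. It was Cldn11, best known from myelin and testis, at 4.68, 5.29 and 4.83 in EOS3F-24, against 3.65 to 3.98 in the full lines (1.16 ± 0.12, limma adjusted p = 2.13e-06). Of 10 other tight junction proteins measured, 2 rose and 2 fell. F11r (JAM-A) read 6.73, 7.58 and 7.57 in EOS3F-24, against 5.85 to 6.71 in the full lines and 5.39, 4.88 and 5.43 in MEFs, 0.99 ± 0.18 above the full lines (limma adjusted p = 0.000764). Its relative Jam2 ran the other way, with 7.84, 7.72 and 7.99 in 2i-converted cells, 4.51, 4.22 and 4.20 in EOS3F-24, 6.21 to 7.15 in the full lines and 4.91, 4.79 and 4.98 in MEFs. It gained 3.54 ± 0.16 on conversion (limma adjusted p = 7.55e-11) and then stood 1.21 ± 0.14 above the full lines (limma adjusted p = 9.89e-05). Of 11 polarity genes, 3 rose and 2 fell in EOS3F-24 against the full lines, with Prkci (atypical protein kinase C) at 0.60 ± 0.17 and Llgl2, a basolateral polarity protein, at -0.45 ± 0.15.

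Of 8 other cadherins and catenins 0 rose and 5 fell in EOS3F-24 against MEFs, and 0 rose and 5 fell in the full lines, where 10% and 17.8% of all genes fell. The 5 were Cdh2, Cdh3, Cdh11, Ctnna1 and Ctnnd1 in each, and the endothelial cadherin Cdh5 was not called, at 0.07 in EOS3F-24 and 0.14 in the full lines. In J1 cells 3 fell, where 17.5% of all genes did, and Cdh3 was not among the 3, at 0.29 (limma adjusted p = 0.27). Cdh3 (P-cadherin) read 4.37, 4.01 and 4.05 in EOS3F-24, against 4.73 to 5.67 in the full lines and 5.98, 5.84 and 5.79 in MEFs. It was 1.03 ± 0.17 below the full lines (limma adjusted p = 0.000267). Cdh2 (N-cadherin) was 0.83 ± 0.20 above the full lines in EOS3F-24 (limma adjusted p = 0.00618) and 0.81 ± 0.23 below MEFs, where limma gave an adjusted p of 0.0154.

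The membrane protease matriptase (St14) and its inhibitors divided in the partial line. St14 read 5.10, 5.95 and 5.96 in EOS3F-24, against 5.21 to 6.14 in the full lines and 3.88, 4.37 and 3.98 in MEFs, so that EOS3F-24 exceeded MEFs by 1.59 ± 0.30 (limma adjusted p = 0.000731). The inhibitor Spint1 read 4.37, 4.60 and 4.72 in EOS3F-24, against 5.09 to 6.20 in the full lines, and was 1.06 ± 0.18 lower (limma adjusted p = 0.000364). Spint2, another inhibitor, was 1.09 ± 0.22 lower than in the full lines (limma adjusted p = 0.00169) yet 1.71 ± 0.25 above MEFs (limma adjusted p = 7.8e-05). Prss8 (prostasin), a protease that works with matriptase, was 0.95 ± 0.18 lower than in the full lines (limma adjusted p = 0.00101). Spint1, Spint2 and Prss8 rose on 2i conversion, by 1.56 ± 0.21, 1.49 ± 0.25 and 0.84 ± 0.21.

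Most of 12 epithelial regulators, transcription factors and the splicing protein gene Esrp2, were called higher than in MEFs in both states. Of these 12, 9 rose and 0 fell in EOS3F-24 and 10 rose and 0 fell in the full lines, while 3 rose and 3 fell in EOS3F-24 against the full lines. Over all genes, 13.7% rose in EOS3F-24 and 17.1% in the full lines against MEFs. In EOS3F-24 against the full lines, 12.8% rose and 5.78% fell. Ehf, an ETS factor of stratified and glandular epithelia, read 3.30, 3.37 and 3.19 in 2i-converted cells, against 7.05, 7.20 and 7.52 in EOS3F-24. It read 3.19 to 4.43 in the full lines and 2.98 to 3.41 in MEFs, and EOS3F-24 exceeded the full lines by 3.47 ± 0.14 (limma adjusted p = 2.37e-11). Grhl2, a Grainyhead factor known to activate Cdh1 and claudin genes, read 3.61, 3.69 and 3.46 in EOS3F-24, against 4.95 to 5.41 in the full lines and 3.51 to 3.53 in MEFs. EOS3F-24 was 1.54 ± 0.11 below the full lines (limma adjusted p = 3.35e-08), and 2i conversion raised it by 1.18 ± 0.13 (limma adjusted p = 3.85e-06). Klf5, a Krüppel-like factor of ES cells and epithelia, was 1.10 ± 0.15 below the full lines (limma adjusted p = 3.87e-05) and gained 1.63 ± 0.17 on conversion (limma adjusted p = 1.99e-06).

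Of 7 repressors of epithelial genes 0 rose and 5 fell in EOS3F-24 against MEFs, and 0 rose and 6 fell in the full lines, where 10% and 17.8% of all genes fell. Twist2 was not called in either, at -0.52 and -0.55, and Zeb1 was not in EOS3F-24, at -0.44. Snai2 was 1.75 ± 0.36 lower in EOS3F-24 (limma adjusted p = 0.00156) and 1.89 ± 0.31 lower in the full lines (limma adjusted p = 0.000128). Between EOS3F-24 and the full lines 0 of the 7 were called by limma, 1 passed an unadjusted p of 0.05, and their median difference was 0.12. Zeb1 was 0.82 ± 0.25 lower after 2i conversion (limma adjusted p = 0.0221). Several repressors are also genes of feeder fibroblasts, whose marker means are given above, and the feeders' share of their signal was not tested.

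**Figure D5:**
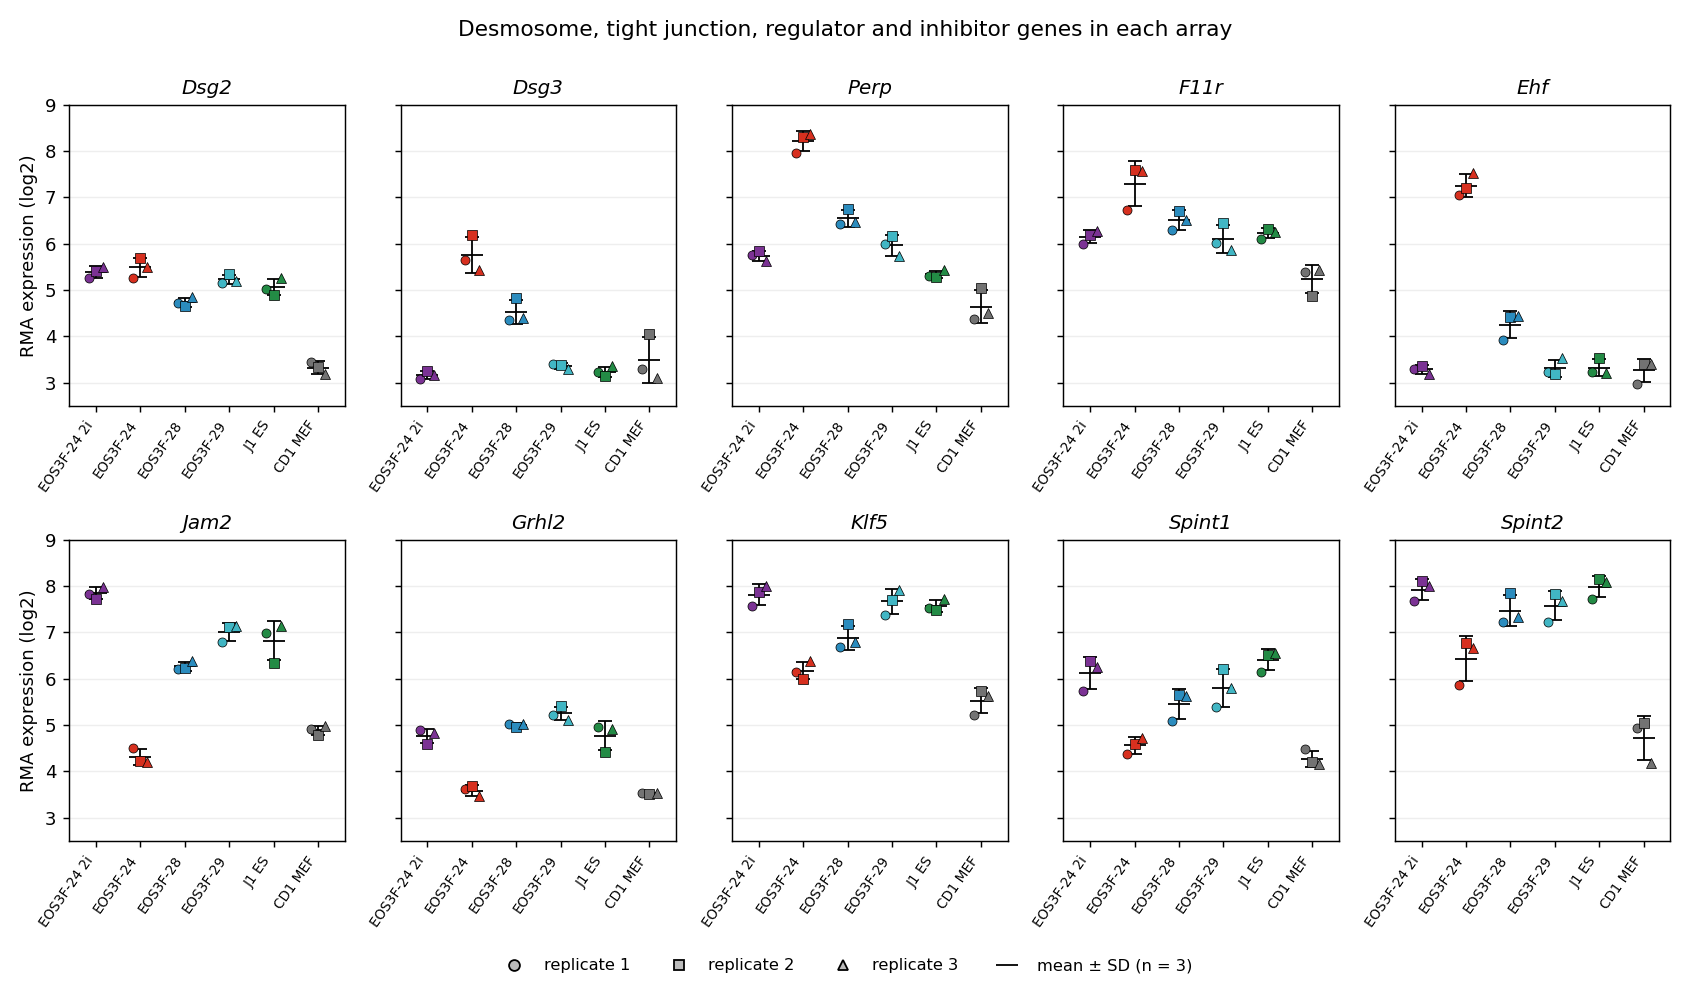
RMA expression (log2, vertical axis) of 10 named genes of the lists on each array, by group (horizontal axis), drawn as for the members with mean ± SD (n = 3). Dsg3, Perp, F11r and Ehf had their highest means in EOS3F-24, while Jam2, Grhl2, Klf5, Spint1 and Spint2 were lower there than in the full lines.

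Genes whose levels tracked a member most closely over the 18 arrays were picked among 3456 genes whose group means spanned at least 1 log2 unit. For Cdh1 they were Slc35f2 (Pearson r = 0.985), Rps6ka6 (0.984) and Mthfd1 (0.977). For Epcam they were Hat1 (0.982), Pla2g1b (0.982) and Dnmt3l (0.980), and Pla2g1b was also among those of Cldn6 (0.968), with Crmp1 (0.973) and Ap1m2 (0.968). Cldn4 was tracked by Cyfip2 (0.971), Cldn7 by Syt14 (0.956), Esrp1 by Usp44 (0.962), Ocln by Ccdc191 (0.945), Crb3 by Ell3 (0.931) and Dsp by Naprt (0.962). Cldn3, which varied least, had Klf15 at 0.820. These values describe 18 arrays that share 6 groups, so group differences set most of them, and no p-value is attached.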

How the data were processed

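RNA was labelled by a whole-transcript assay and hybridised to mouse arrays, per the labels' protocols. The deposited table gives 1 log2 value for every probe set and array, computed with RMA per the submitters' processing notes. RMA corrects background, sets the arrays to a like distribution and summarises probes, so it compresses differences near background and removes shifts common to most genes. Neither its version nor a genome build or annotation is given in the sources used here. Precision is limited by how many arrays there were.

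Of 34760 probe sets, 21640 have 1 gene symbol in the platform annotation, 1321 have several, and 11799 are not listed in it. For each of 19937 genes the probe set with the highest mean was kept. Sample titles gave the group and the replicate number. Group means were estimated from the 18 arrays together in limma 3.58.1 (R 4.3.3; lmFit, eBayes), and the code was tested on simulated data. The 9 comparisons were contrasts, with both full lines averaged. A call is an adjusted p under 0.05, by the Benjamini-Hochberg method across every gene. Values are levels or differences of log2 means, ± SD for levels and ± SE for differences.

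The members and lists were chosen with earlier results of these data known. All members are named. The rule for naming other genes took, of each list, the largest called rise and fall of a comparison and every gene of a list of 5 or fewer. It also took the 3 genes most like a member. Some genes that this rule picked are left out here, and most members are given only their closest gene. Genes named beyond this rule (Krt5, Krt14, and second examples and uncalled genes within lists) were chosen after their values were seen. Same-numbered arrays deviated together (every correlation over 0.1) for EOS3F-24 against J1 (0.208 to 0.242) and 2i-converted against EOS3F-24 (0.122 to 0.383). They also did for EOS3F-28 against EOS3F-29 (0.149 to 0.639). This was read from the values and not the labels, and no other comparison met the rule. Replicates 1 and 2 still correlated at 0.629 and 0.506 for 2i-converted cells against the full lines, with replicate 3 at -0.100. For the full lines against J1 they gave 0.613 and 0.483, with replicate 3 at -0.114. EOS3F-24 against the full lines gave 0.435, 0.352 and 0.067. Alternatives were a replicate block, other scaling and probe set rules, other variance settings, a filter on dim genes, only the arrays compared, each full line alone, and each array left out. A fibroblast marker covariate and leaving out all replicate 1 arrays of feeder-grown groups were added after seeing the data. Promoter windows are RefSeq's (GRCm38.p6), with no window used for Cdh1 and Esrp1.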

Additional observations from a re-analysis of the deposited data

How the results depend on the processing

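Over 1493 recomputed member differences, 1363 kept direction and side of the threshold, 46 lost a call, 35 gained one, 0 called values reversed and 49 uncalled values changed sign. Direction could not change with the replicate block, the probe set rule, the dim-gene filter, only the arrays compared or other variance settings. These left each member's difference as it was and altered only its p-value, since each member has 1 probe set. For EOS3F-24 minus the full lines, Epcam ran from -3.44 to -2.98, Cldn6 from -3.03 to -2.79 and Dsp from 1.62 to 2.05, called in all 20 settings. Members higher in EOS3F-24 than in MEFs numbered 5 without the replicate 1 arrays of feeder-grown groups, and 3 to 4 with 1 array left out. Of 19937 genes, 2878 and 1988 to 2696 were higher in those fits. Members lower in 2i-converted cells than in the full lines numbered 3 with a replicate block, 3 with the fibroblast covariate, 0 with only the arrays compared, 0 against EOS3F-28 alone, 0 against EOS3F-29 alone, 0 without the replicate 1 arrays, and 0 to 1 with 1 array left out. In the same order, the genes called lower out of 19937 numbered 710, 361, 177, 271, 91, 285 and 64 to 327. For the full lines against J1 cells the block gave 4 higher and 3 lower, the covariate 4 higher, leaving out the replicate 1 arrays 2 lower, and leaving out 1 array 0 to 2 lower. Of 19937 genes, the block called 796 higher and 1278 lower, and the covariate 483 higher. Without the replicate 1 arrays 429 were lower, and with 1 array left out 213 to 889. The cause of these changes was not tested, beyond the smaller number of arrays where arrays were left out. Calls of Crb3 and Cldn3 changed with single arrays; Crb3 in the full lines against MEFs was lost without MEF replicate 1 or 2 or either full line's replicate 2 or 3, and Cldn3 in J1 cells against MEFs without replicate 2 or 3 of either. The replicate block changed no other call in the comparisons whose numbers pair. Against MEFs, where same-numbered arrays correlated at -0.137 to 0.155, the block added Esrp1 in EOS3F-24, and in J1 cells it added Dsp and lost Cldn3. The filter at a log2 level of 5 kept 8977 genes and gave no value for Cldn3, Ocln and Crb3.

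Counts over all genes moved by over 1.5 times as follows. Against 1029 called for 2i-converted cells minus the full lines, the block gave 2117, housekeeping centring 1720, EOS3F-29 alone 493, and leaving out converted replicate 2 or 3 gave 351 or 376. Against 949 for the full lines minus J1, the block gave 2074, the covariate 1484, only the arrays compared 520, EOS3F-29 alone 374, and leaving out J1 replicate 3 gave 303. Against 3702 for EOS3F-24 minus the full lines, leaving out EOS3F-24 replicate 2 gave 2380. Against 106 between the full lines, the block gave 380, the covariate 294, only the arrays compared 46, and leaving out 1 array down to 43. Cyclic loess moved the share of calls that were higher to 45.3% from 57.7% (EOS3F-24 minus MEFs), to 52.9% from 68.9% (EOS3F-24 minus full), to 58% from 76.8% (2i-converted minus full), to 46.2% from 27.2% (full minus J1) and to 67.1% from 56.6% (EOS3F-28 minus EOS3F-29). Housekeeping centring moved it to 26.3% from 41.9% (2i-converted minus EOS3F-24) and to 23% from 76.8% (2i-converted minus full), with the median of all genes at -0.11 and -0.17.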

Other observations

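Markers of other embryonic epithelia were examined as lists and as single genes. The mean of 8 trophoblast markers was 4.13 to 4.36 in 2i-converted cells, 4.40 to 4.45 in EOS3F-24, 4.17 to 4.46 in the full lines, 4.11 to 4.44 in J1 cells and 3.83 to 3.96 in MEFs. The mean of 9 markers of primitive and visceral endoderm was 4.11 to 4.26 in 2i-converted cells, 4.39 to 4.61 in EOS3F-24, 4.21 to 4.47 in the full lines, 4.07 to 4.14 in J1 cells and 4.38 to 4.50 in MEFs. In EOS3F-24 against the full lines, 2 trophoblast markers rose (Gata3 by 0.94 ± 0.11 and Cdx2 by 0.54 ± 0.13) and 1 fell (Eomes, at -0.60 ± 0.09), and 2 endoderm markers rose and 0 fell, where 12.8% of all genes rose and 5.78% fell. The endoderm risers were Dab2, an endocytic adaptor gene, and the transcription factor Gata6. Dab2 read 4.93, 4.71 and 5.01 in 2i-converted cells, 6.93, 7.91 and 7.11 in EOS3F-24, 5.07 to 6.73 in the full lines, 4.96, 4.79 and 4.80 in J1 cells and 6.78, 6.75 and 6.89 in MEFs. It was 1.39 ± 0.19 above the full lines in EOS3F-24 (limma adjusted p = 3.4e-05) and 2.43 ± 0.21 lower after conversion (limma adjusted p = 2.25e-07). Gata6 averaged 5.44 in EOS3F-24, 4.36 in J1 cells and 4.69 in MEFs, and exceeded the full lines by 0.90 ± 0.12 (limma adjusted p = 3.03e-05). Tfap2c, on the trophoblast and the epithelial regulator lists, averaged 5.94 in EOS3F-24, 5.52 in the full lines and 3.60 in MEFs. The 12 housekeeping genes used for centring averaged 8.50 to 8.79 over all arrays.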
